A study of Homo sapiens with 24 samples.

Results

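*WIPI1*, *AHNAK*, *CYP19A1* and *KCNN1* are 4 genes whose mRNA was lower after knockdown (KD) of p52/RelB, and by more than after KD of p50/RelA. They were chosen by these KD minus control differences, measured on the arrays described here, among 18417 genes with a transcript cluster (the probes that the array maker groups to measure a gene) annotated to a single symbol. The KD effects and their difference between the KDs are therefore given as descriptions with no test. Each gene had 1 cluster, and all 4 passed the filter on low values in both experiments. *KCNN1* was also lower after p50/RelA KD, so a lower level was not specific to p52/RelB KD for all 4.

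The cells were L1236, an established Hodgkin lymphoma (HL) cell line of B cell origin, measured on 24 gene expression arrays in 2 experiments of 12 arrays. In experiment 2, p52/RelB KD cells received siRNA against *RELB* at 1 µM for 3 days and against *NFKB2* at 500 nM for 2 days, and in experiment 1, p50/RelA KD cells received siRNA against *NFKB1* at 1 µM for 3 days and against *RELA* at 500 nM for 2 days. Control cells of each experiment received non-targeting siRNA, and RNA was taken 1 day after siRNA treatment stopped. Each arm held 6 arrays, from 3 biological replicates with 2 siRNA sequences each. Each KD lowered a pair of mRNAs at the same time, so the part of either subunit cannot be told apart.

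NF-κB transcription factors are dimers that bind κB sites in DNA. p50, made from the *NFKB1* product p105, pairs with RelA in the canonical pathway, and p52, made from the *NFKB2* product p100, pairs with RelB in the non-canonical pathway. HL cells are known for NF-κB activity that is on without an outside stimulus. WIPI1 is a WD-repeat protein that binds phosphatidylinositol 3-phosphate on forming autophagosomes. AHNAK is a very large scaffold protein that binds the S100A10/annexin A2 complex and the β subunits of voltage-gated calcium channels. CYP19A1 is aromatase, the enzyme that turns androgens into oestrogens, and its gene has several alternative first exons used in different tissues. KCNN1 (SK1) is a small-conductance potassium channel opened by calcium.

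The siRNAs of the p52/RelB KD are shown because every value below rests on them, and those of the p50/RelA KD for comparison. The strands are printed 5′ to 3′ as the methods list them, with the 2 sequences against each target in the order listed, and which of them the labels call sequence 1 is not stated in the list.
*NFKB2*: ucauugagcagauagucua
*NFKB2*: cugucaagaucuguaacua
*RELB*: guaggauucggaaaagauu
*RELB*: uggagaucaucgacgagua
*NFKB1*: ccaaaguauaaagauauua
*NFKB1*: ggcucauguuuacagcuuu
*RELA*: cuuccaaguuccuauagaa
*RELA*: ggauugaggagaaacguaa

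The promoters of the 4 genes were searched for a match to the κB consensus on either strand, in windows of 300 bases that run from 250 bases before to 50 bases after each RefSeq start (GRCh38.p14). The 4 genes had 11 such windows, 1 each for *WIPI1* and *AHNAK*, 2 for *KCNN1* and 7 for *CYP19A1*. *AHNAK*, *CYP19A1* and *KCNN1* each had a match in 1 window, and the *WIPI1* window had no match. Over all genes, a match was present in 5.91% of 35116 windows. Counted by gene, it was present in 5.57% of the 22114 genes with 1 window, 11.0% of the 3606 genes with 2 windows and 33.3% of the 30 genes with 7 windows. The windows with a match are printed from the coding strand, with the match in capitals. The match began 141 bases before the start in *AHNAK*, 172 bases before it in *CYP19A1*, where it lies on the opposite strand, and 182 bases before it in *KCNN1*.
*AHNAK*, chr11:62545777-62546076, minus strand: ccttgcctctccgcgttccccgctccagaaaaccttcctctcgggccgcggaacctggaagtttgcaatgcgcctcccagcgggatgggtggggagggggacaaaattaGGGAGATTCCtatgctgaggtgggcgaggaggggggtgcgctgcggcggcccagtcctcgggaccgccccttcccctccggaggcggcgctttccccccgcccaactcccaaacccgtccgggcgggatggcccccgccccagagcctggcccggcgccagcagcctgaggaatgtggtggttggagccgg
*CYP19A1*, chr15:51288289-51288588, minus strand: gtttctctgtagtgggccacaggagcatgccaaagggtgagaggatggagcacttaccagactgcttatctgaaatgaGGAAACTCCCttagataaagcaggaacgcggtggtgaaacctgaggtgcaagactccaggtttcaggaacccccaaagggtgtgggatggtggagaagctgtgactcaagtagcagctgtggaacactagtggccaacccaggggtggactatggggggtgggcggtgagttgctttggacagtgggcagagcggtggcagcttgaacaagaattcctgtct
*KCNN1*, chr19:17952007-17952306, plus strand: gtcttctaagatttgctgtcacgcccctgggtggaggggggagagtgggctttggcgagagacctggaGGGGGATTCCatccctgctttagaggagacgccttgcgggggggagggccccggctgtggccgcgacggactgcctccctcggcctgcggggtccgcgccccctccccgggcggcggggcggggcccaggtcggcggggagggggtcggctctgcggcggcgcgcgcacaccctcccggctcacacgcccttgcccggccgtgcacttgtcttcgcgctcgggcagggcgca
These are matches of letters and not measured sites, and the arrays do not tell which start the cells used. TGANTCA, the AP-1 motif, which reads the same on both strands, was found in 2 of the 7 *CYP19A1* windows, 1 of them the window printed above, where it lies apart from the κB match, and in none of the other members. It was present in 7.71% of all windows and in 46.7% of the genes with 7 windows. CACGTG, the E-box, was in none of the 11 windows and in 7.26% of all windows.

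Before the 4 genes are described, the targets and the arrays were checked. After p52/RelB KD, *NFKB2* fell to 39.4% of control (log2 difference −1.34 ± 0.04, SE) and *RELB* to 82.0% (−0.29 ± 0.05). After p50/RelA KD, *NFKB1* fell to 26.5% (−1.92 ± 0.12) and *RELA* to 38.1% of control (−1.39 ± 0.09). Each KD also moved a subunit of the other pair, since *NFKB1* rose by 0.15 ± 0.04 after p52/RelB KD (adjusted p = 0.0374) and *NFKB2* fell by 0.19 ± 0.04 after p50/RelA KD (adjusted p = 0.0457), with all 6 KD arrays below all controls. The medians of the arrays ranged over 7.39 to 7.51 for experiment 2, against 6.94 to 6.99 for experiment 1, so levels were not compared across experiments. In replicate 3, the p52/RelB KD array with sequence 2 had the highest median (7.51) and the lowest mean correlation with its arm (0.986), and values without it are given where it mattered. All 8 HL markers were above the low limit of 6 in both experiments, and so were 6 of the 7 B cell markers measured, with *MS4A1* (CD20) below it. Below, a cluster is called where limma gave an adjusted p under 0.05 and a difference of at least 10%. Of these, *CCL22* (−0.86 ± 0.08), *TRAF1* (−0.23 ± 0.06), *CD22* (−0.30 ± 0.07) and *PAX5* (0.19 ± 0.04) were called after p52/RelB KD, and *CCL22* (−0.75 ± 0.05) and *CCL17* (−0.44 ± 0.04) after p50/RelA KD. Over all clusters, 5.75% were called lower and 3.93% higher after p52/RelB KD, and 0.825% lower and 0.245% higher after p50/RelA KD. Many markers of other cell types were above the limit of 6 as well, so that limit alone does not tell the lineages apart: in experiment 2 these were 8 of 9 for T and NK cells, 5 of 8 for myeloid cells and 8 of 9 for stromal cells, and in experiment 1 4 of 9, 4 of 8 and 7 of 9. Among those tested, only *PECAM1*, an adhesion molecule on the stromal list, was called, after p52/RelB KD (0.19 ± 0.04), against 5.75% of all clusters called lower and 3.93% called higher there.

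*WIPI1* was lower after p52/RelB KD on every array. Its log2 level was 10.00 at the lowest, 10.07 at the median and 10.17 at the highest in p52/RelB KD cells, against 10.75, 10.77 and 10.88 in control cells. The arms lay 0.58 apart with no overlap. KD minus control was −0.71 ± 0.04 (SE, n = 6 arrays per arm), which is 61.1% of control. Replicate 3, scanned in a batch of its own, had the most negative value (−0.81), while replicates 1 and 2, scanned together, had −0.67 and −0.66. After p50/RelA KD the level was 10.21, 10.32 and 10.38 at the lowest, median and highest in KD cells, against 10.32, 10.39 and 10.42 in control cells. These arms overlapped, with 3 of 6 KD arrays below every control array, and KD minus control was −0.07 ± 0.03. The effect after p52/RelB KD less that after p50/RelA KD was −0.64 ± 0.05, rank 28 from the lowest among the 14647 clusters tested in both experiments.

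*AHNAK* had almost the same pair of effects as *WIPI1*. Its level was 10.23, 10.38 and 10.47 (lowest, median and highest) in p52/RelB KD cells, against 10.99, 11.09 and 11.13 in control cells. No KD array reached the lowest control array, and the gap was 0.52. KD minus control was −0.71 ± 0.04, or 60.9% of control, and by replicate it was −0.68, −0.74 and −0.72. In experiment 1 the level was 10.55, 10.66 and 10.75 in p50/RelA KD cells, against 10.67, 10.69 and 10.78 in control cells. KD minus control there was −0.06 ± 0.04, and the replicates differed in sign, with −0.08, −0.13 and 0.04. The difference of the effects was −0.66 ± 0.05, rank 24.

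*CYP19A1* had the least negative effect of the 4 after p52/RelB KD and was the only member with a positive mean after p50/RelA KD. Its level was 10.06, 10.21 and 10.28 (lowest, median and highest) in p52/RelB KD cells, against 10.65, 10.74 and 10.80 in control cells. The arms lay 0.37 apart, and KD minus control was −0.54 ± 0.04, or 68.6% of control. By replicate it was −0.51, −0.52 and −0.61. In experiment 1 the level was 10.77, 10.85 and 10.94 in p50/RelA KD cells, against 10.65, 10.75 and 11.00 in control cells. The control array of sequence 2, replicate 1 was above every KD array, and no KD array was below all controls. KD minus control was 0.08 ± 0.04, and the difference of the effects was −0.62 ± 0.06, rank 32.

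*KCNN1* had the most negative effect of the 4 after p52/RelB KD and was also lower after p50/RelA KD. Its level was 9.19, 9.30 and 9.37 (lowest, median and highest) in p52/RelB KD cells, against 9.96, 10.03 and 10.19 in control cells. KD minus control was −0.77 ± 0.03, or 58.7% of control, and the arms lay 0.58 apart. In experiment 1 the level was 9.69, 9.78 and 9.87 in p50/RelA KD cells, against 9.90, 10.03 and 10.14 in control cells. All 6 KD arrays lay below all 6 control arrays here too, although by a gap of only 0.03. KD minus control was −0.26 ± 0.05, or 83.8% of control, with −0.34, −0.25 and −0.17 in the replicates. The difference of the effects was −0.51 ± 0.06, the smallest of the 4, at rank 55. *KCNN1* was thus lower after either KD, and lower by more after p52/RelB KD.

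**Figure D1:**
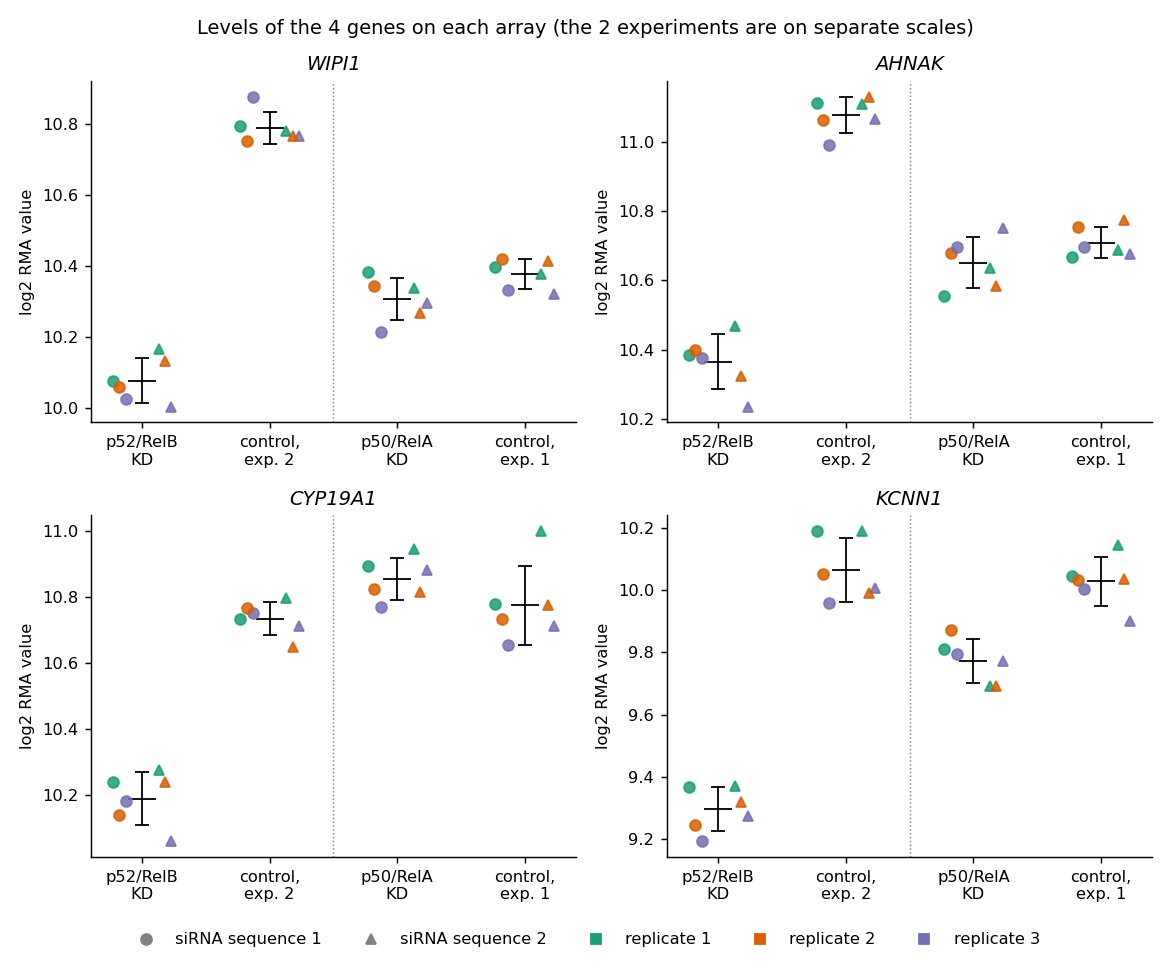
Log2 RMA level of each gene on each of the 24 arrays, with p52/RelB KD and p50/RelA KD each left of the control of their own experiment. Circles and triangles are siRNA sequences 1 and 2, colours are replicates, and black bars are the mean ± SD of 6 arrays. After p52/RelB KD all 6 arrays lie below all controls for each gene, while after p50/RelA KD that holds for *KCNN1* alone.

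In bulk RNA, fewer cells that carry a transcript and less of it per cell cannot be told apart. For all 4 genes, 6 of 6 p52/RelB KD arrays lay below all control arrays, a pattern found for 3.17% of the 16101 clusters tested, and for *KCNN1* the same held after p50/RelA KD, where it was found for 0.736% of 14672. Clusters called lower made up 5.75% of those tested after p52/RelB KD and 0.825% after p50/RelA KD, and clusters called higher 3.93% and 0.245%. The difference of the effects was called in the direction of the 4 genes for 2.45% of clusters. Ranked from the most negative effect, *KCNN1*, *AHNAK*, *WIPI1* and *CYP19A1* stood at 24, 32, 35 and 71 after p52/RelB KD, and at 97, 2423, 1908 and 13247 after p50/RelA KD. The median over all clusters was 0.02 after p52/RelB KD and 0.00 after p50/RelA KD.

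**Figure D2:**
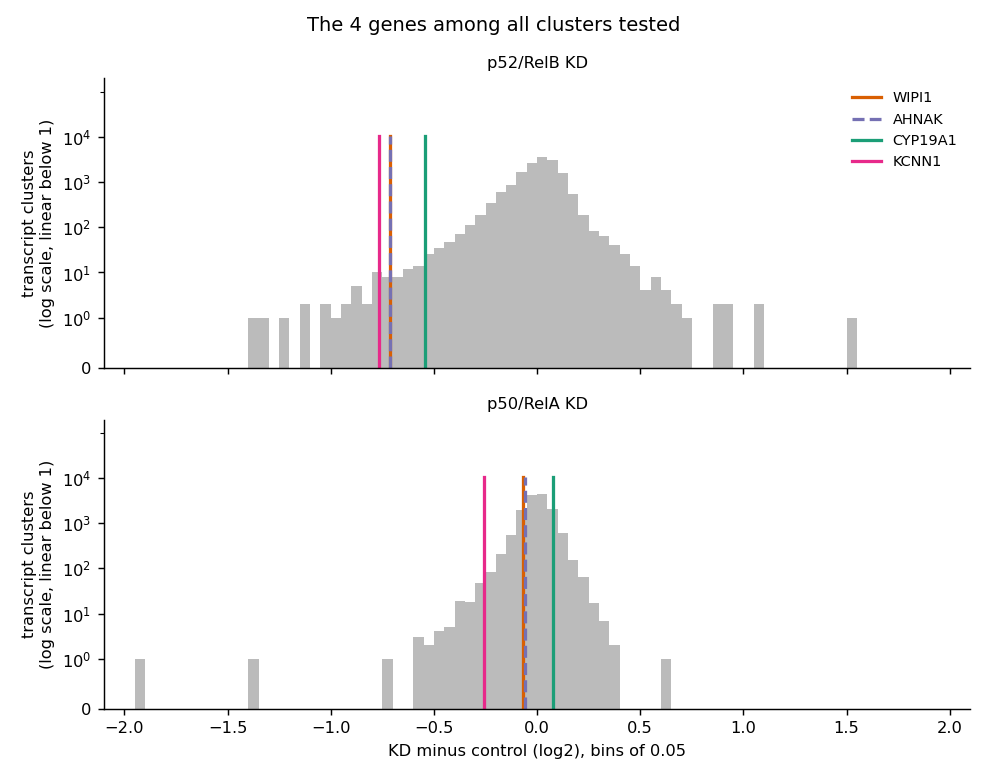
Number of transcript clusters (log axis, linear below 1) by KD minus control in bins of 0.05 on the log2 scale, for the 16101 clusters tested after p52/RelB KD and the 14672 after p50/RelA KD. Coloured lines mark the 4 genes, with *WIPI1* and *AHNAK* drawn over each other at −0.71 in the upper panel, and *KCNN1* at −0.26 farthest left of the 4 in the lower panel.

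The lower levels after p52/RelB KD were present with both siRNA sequences. Set against the controls of its own replicate, each p52/RelB KD array held 56.7% to 65.1% of the control level for *WIPI1*, 57.7% to 64.0% for *AHNAK*, 62.8% to 72.3% for *CYP19A1* and 56.7% to 61.6% for *KCNN1*. For *WIPI1*, *AHNAK* and *CYP19A1* the lowest of these was sequence 2 of replicate 3, the array with the outlying median. Without that array the effects are within the ranges given for the alternatives in the closing section.

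The difference between the sequences is independent of the KD contrast, so it was tested. Within the p52/RelB KD arm, sequence 1 minus sequence 2 was −0.05 ± 0.06 for *WIPI1*, 0.05 ± 0.06 for *AHNAK*, −0.00 ± 0.06 for *CYP19A1* and −0.05 ± 0.05 for *KCNN1* (SE, limma, adjusted p between 0.611 and 0.973). Within the p50/RelA KD arm it was 0.01 ± 0.05, −0.01 ± 0.06, −0.05 ± 0.06 and 0.11 ± 0.06 for the same genes in that order (adjusted p = 0.999). Hence no sequence difference was detected, and for *KCNN1* after p50/RelA KD its size was below that of the KD effect, with −0.20 by sequence 1 and −0.31 by sequence 2. By limma 0 of the 4 members were called in either arm, also at an unadjusted p under 0.05. Over all clusters 0% were called in the p52/RelB KD arm and 0% in the p50/RelA KD arm, while 9.54% and 3.50% had an unadjusted p under 0.05.

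**Figure D3:**
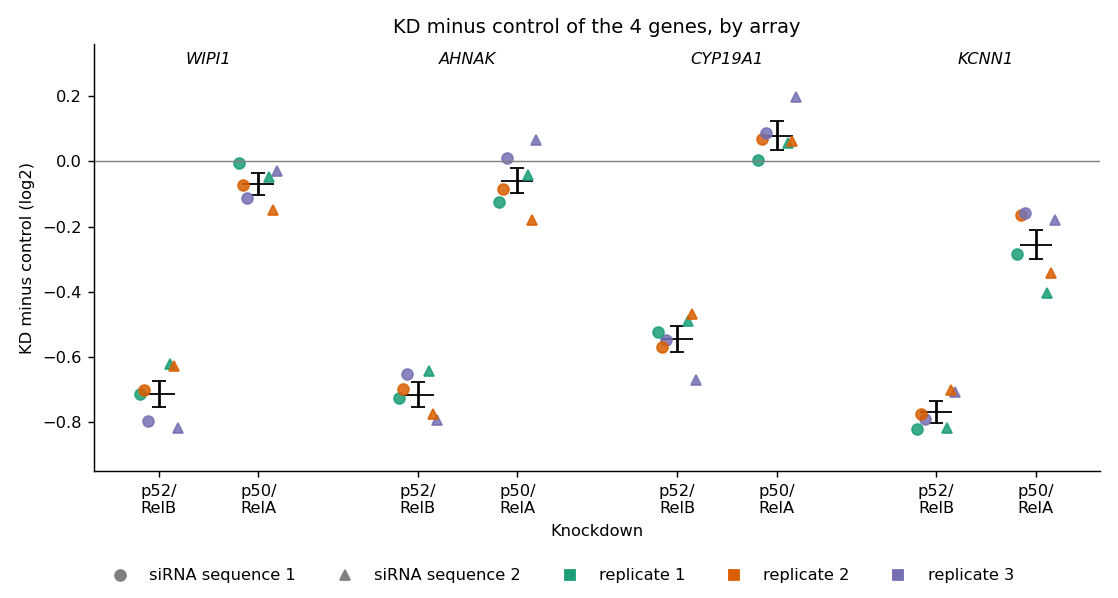
KD minus control on the log2 scale for each KD array, set against the mean of the 2 control arrays of its replicate. Circles and triangles are siRNA sequences 1 and 2, colours are replicates, and black bars are the fitted effect ± SE. All p52/RelB KD arrays lie between −0.82 and −0.47, and the p50/RelA KD arrays between −0.40 and 0.20.

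The spread of the 4 genes around their arm and replicate means was below that of most clusters after p52/RelB KD. This is a description, since the members were chosen on these same arrays and the clusters were not matched for level. The residual SD was 0.06 for *WIPI1*, 0.05 for *AHNAK*, 0.06 for *CYP19A1* and 0.04 for *KCNN1*, against a median of 0.10 over all clusters. In experiment 1 it was 0.04, 0.06, 0.07 and 0.08 for the same genes, against a median of 0.08.

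The genes around each member were then looked at by function, and each list below leaves out the member itself. The lists were drawn up with earlier results of these data known, and their p-values were adjusted over all clusters tested. Of 38 other autophagy genes tested, 4 fell after p52/RelB KD and none passed as higher in the fit to all arrays, with a median of −0.02 over the list, against 0.02 over all clusters, of which 5.75% were called lower. *PIK3C3*, the lipid kinase that makes the phosphatidylinositol 3-phosphate bound by WIPI1, fell by 0.28 ± 0.05 on the log2 scale (adjusted p = 0.00572), with 9.16 to 9.60 in KD cells, against 9.64 to 9.89 in control cells. *UVRAG*, a subunit of a PIK3C3 complex, fell by 0.24 ± 0.07 (adjusted p = 0.0386), *WDR45B*, a WIPI family member, by 0.23 ± 0.05 (adjusted p = 0.0164), and *ATG2A*, a lipid transfer protein that works with this family, by 0.17 ± 0.03 (adjusted p = 0.00853). The other WIPI family members did not pass, with −0.00 ± 0.04 for *WIPI2* and −0.10 ± 0.05 for *WDR45*. After p50/RelA KD, limma called 0 of 38 and the methods' t-test 0. By limma 9 had an unadjusted p under 0.05 there, against 8 of 38 after p52/RelB KD. The share of all clusters with such a KD effect was not counted, here or for the next list. The count of 4 falls depended on the libraries used, and was 0 without replicate 1, 1 without replicate 2 and 0 with sequence 2 alone. The same 4 genes fell without replicate 3 and without the outlying KD array, but rises were then called too, of *ATG2B* and *GABARAPL1* without replicate 3 and of these and *MAP1LC3B* without that array, so that the list had 6 and 7 calls. In the fit to all arrays *GABARAPL1*, which codes for an ATG8 family protein, was at 0.17 ± 0.05 and did not pass (adjusted p = 0.0622). For none of the 4 did the test of the difference between the KDs pass, and *PIK3C3* came nearest (−0.25 ± 0.07, adjusted p = 0.0503).

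Of 12 relatives and partners of AHNAK tested, 2 fell and 2 rose after p52/RelB KD, with a median of −0.03, against 5.75% called lower and 3.93% called higher over all clusters. *S100A10*, which bridges AHNAK and annexin A2, fell by 0.52 ± 0.06 (adjusted p = 0.000136), with 10.69 to 11.12 in KD cells, against 11.17 to 11.52 in control cells. *CACNB3*, a calcium channel β subunit, fell by 0.24 ± 0.03 (adjusted p = 0.000886). For both, all 6 KD arrays lay below all controls. *ANXA2* itself was at −0.01 ± 0.05 and did not pass. *ANXA1*, another annexin, rose by 0.28 ± 0.05 (adjusted p = 0.00437), and *MYOF*, a membrane repair protein of the ferlin family, by 0.17 ± 0.04 (adjusted p = 0.0285). After p50/RelA KD, limma called 0 of the 10 tested, and the methods' t-test called 2, *ANXA1* and *CACNA1C*, both higher. By limma 3 had an unadjusted p under 0.05 there, against 4 of 12 after p52/RelB KD. After p50/RelA KD, *S100A10* was at −0.04 ± 0.09 and *CACNB3* at 0.02 ± 0.04, and both effects differed between the KDs (−0.48 ± 0.11, adjusted p = 0.0130, and −0.26 ± 0.05, adjusted p = 0.00298). *ANXA1* was at 0.18 ± 0.04 after p50/RelA KD (adjusted p = 0.0596), with 11.39 to 11.56 in KD cells, against 11.22 to 11.36 in control cells. The test of the difference passed neither for *ANXA1* (0.10 ± 0.06, adjusted p = 0.472) nor for *MYOF* (0.12 ± 0.06, adjusted p = 0.302). *S100A10* was called without any 1 replicate, while *CACNB3* was not called without replicate 2 (adjusted p = 0.0557). *ANXA1* and *MYOF* were called neither without replicate 1 nor without replicate 2, and the count of 4 was then 2 and 1.

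Of 19 other steroid and oestrogen genes tested, 1 fell and 2 rose after p52/RelB KD, with a median of 0.05, against 5.75% called lower and 3.93% called higher over all clusters. *HSD17B12*, an enzyme of fatty acid elongation that also reduces oestrone to oestradiol, fell by 0.49 ± 0.07 after p52/RelB KD (adjusted p = 0.000714). It was also the only gene of the 15 tested that was called after p50/RelA KD (0.825% of all clusters were called lower), where it fell by 0.25 ± 0.04 (adjusted p = 0.00897), and all 6 KD arrays lay below all controls in both experiments. The 2 effects were not shown to differ (−0.24 ± 0.08, adjusted p = 0.103). The call after p50/RelA KD was lost without replicate 1 and without replicate 2, with an adjusted p of up to 0.209, whereas that after p52/RelB KD held without any 1 replicate. *AKR1C3*, which makes testosterone from androstenedione, rose by 0.31 ± 0.08 (adjusted p = 0.0297), and *STS*, steroid sulphatase, by 0.22 ± 0.04 (adjusted p = 0.00355). Both calls were lost without replicate 1 and without replicate 2, so the count of 3 was 1 in each case. The oestrogen receptors *ESR1* and *ESR2* were tested in experiment 2 alone and were not called. *AKR1C3* was also tested in experiment 2 alone. It lay near the low limit of 6, with 6.60 to 6.97 in p52/RelB KD cells, against 6.19 to 6.62 in control cells.

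Of 7 other calcium-activated potassium channel genes tested, 2 fell after p52/RelB KD and none rose, with a median of −0.03, against 5.75% of all clusters called lower. *KCNMA1*, the pore subunit of the large-conductance (BK) channel, averaged 8.14 in KD cells, against 8.59 in control cells, and no KD array (highest 8.26) reached a control array (lowest 8.52). It fell by 0.45 ± 0.04 (adjusted p = 1.93e-05), and the call held without any 1 replicate. *KCNMB1*, a β subunit of the same channel, fell by 0.25 ± 0.05 (adjusted p = 0.00549), a call that was lost without replicate 1 and without replicate 2, so that the count was then 1. After p50/RelA KD, *KCNMA1* fell by 0.16 ± 0.03 (adjusted p = 0.0447), the only call among 6 genes tested, against 0.825% of all clusters called lower, and it was lost without any 1 replicate (adjusted p between 0.158 and 0.474). The fall of *KCNMA1* was larger after p52/RelB KD, and the test of the difference passed (−0.28 ± 0.05, adjusted p = 0.000849). The other SK family channels tested, *KCNN3* and *KCNN4*, were at −0.09 ± 0.05 and 0.05 ± 0.05 after p52/RelB KD and did not pass, although *KCNN3* was called lower without replicate 3, which gave a count of 3.

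**Figure D4:**
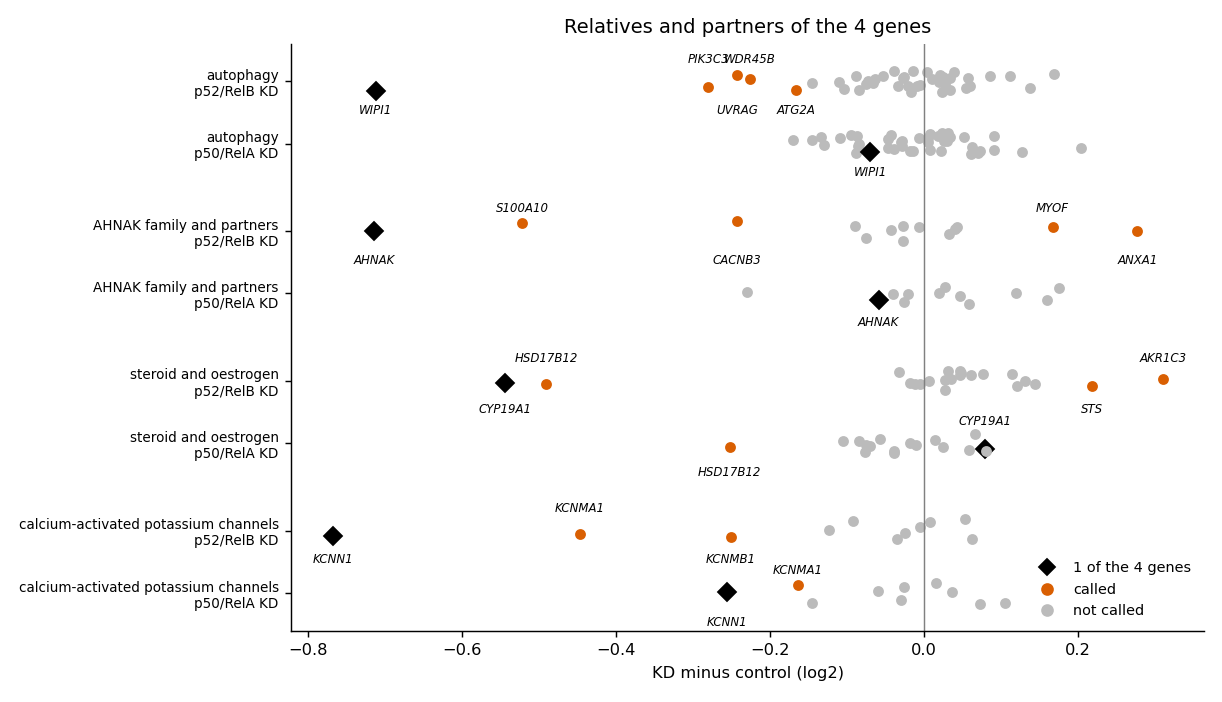
KD minus control on the log2 scale for every tested cluster of the 4 gene lists, after p52/RelB KD and after p50/RelA KD. Black diamonds are the 4 members, orange points are called clusters with their gene, and grey points were not called. *S100A10* (−0.52), *HSD17B12* (−0.49) and *KCNMA1* (−0.45) lie nearest to the members after p52/RelB KD.

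The protein-coding genes next to the members on the chromosome, 2 on each side, were looked at where they passed the filter, which left 13 of 16 tested after p52/RelB KD and 12 of 16 after p50/RelA KD. Of these, 2 were called after p52/RelB KD, against 5.75% of all clusters called lower and 3.93% called higher. After p52/RelB KD, *DMXL2*, near *CYP19A1* and known for a role in vesicle acidification, fell by 0.23 ± 0.05 (adjusted p = 0.0183), with 9.97 to 10.40 in KD cells, against 10.47 to 10.53 in control cells. *IL12RB1*, an interleukin receptor subunit near *KCNN1*, rose by 0.15 ± 0.03 (adjusted p = 0.0109), with 8.85 to 8.95 in KD cells, against 8.67 to 8.79 in control cells. Both calls were lost without replicate 1 (adjusted p = 0.189 for *DMXL2* and 0.210 for *IL12RB1*) and without replicate 2 (0.0970 and 0.111), and neither effect passed the test of the difference between the KDs (adjusted p = 0.194 and 0.252). None of the 2 neighbours of *WIPI1* and 4 of *AHNAK* tested after p52/RelB KD was called, nor was any of the 12 tested after p50/RelA KD. *EEF1G*, beside *AHNAK*, was at −0.01 ± 0.04 after p52/RelB KD, and *PRKAR1A*, beside *WIPI1*, at −0.06 ± 0.04.

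The genes most like each member over the 24 arrays are given as a description, after the mean of the 4 arrays of each replicate was taken off, so that the points share the KD step itself. *WIPI1* was most like *NFKB2* (r = 0.982), the siRNA target, then *TMPRSS3* (0.978), a serine protease, and *AHNAK* (0.976). *AHNAK* was most like *WIPI1*, *TMPRSS3* (0.976) and *NFKB2* (0.975). *TMPRSS3* was at −1.22 ± 0.06 after p52/RelB KD and −0.22 ± 0.05 after p50/RelA KD. *CYP19A1* kept other company, with *MTUS1* (0.974), a microtubule-associated protein, *SORL1* (0.955), a sorting receptor, and *PAMR1* (0.954), and their effects were −0.50 ± 0.05, −0.16 ± 0.03 and −0.76 ± 0.07 after p52/RelB KD, with 0.02 ± 0.04, 0.04 ± 0.03 and 0.06 ± 0.06 after p50/RelA KD. *KCNN1* was most like *CAMK1D* (0.973), a calcium-dependent kinase, *KCNMA1* (0.968) and *WWTR1* (0.966), the coactivator TAZ. These 3 had negative values after both KDs, −0.43 ± 0.03, −0.45 ± 0.04 and −0.64 ± 0.05 after p52/RelB KD and −0.13 ± 0.04, −0.16 ± 0.03 and −0.17 ± 0.06 after p50/RelA KD. Between the members, r lay between 0.857, for *CYP19A1* with *KCNN1*, and 0.976, for *WIPI1* with *AHNAK*.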

How the data were processed

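RNA of L1236 cells was hybridised to 24 Affymetrix whole-transcript gene arrays, 1 per sample. The authors deposited log2 values made by RMA, which corrects the background and quantile normalises the arrays. The methods name the Bioconductor library oligo, with no version, and used Ensembl genes on NCBI36/hg18 to remove genes on other chromosomes. That step was not repeated here. The array medians differed between the experiments, so the effect of each KD was fitted within its own experiment. The difference of the effects, with its SE and p-value, came from 1 joint limma fit to all 24 arrays. In that fit each KD was still set against the controls of its own experiment, and the variance was shared. Of 33297 transcript clusters, the 19460 with a single symbol in the platform annotation were kept (1754 had several and 12083 were unlisted), and symbols were updated for 19429. Following the methods, clusters under 6 in at least 50% of the 12 arrays of an experiment were left out.

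In each experiment, KD minus control was estimated by limma 3.58.1 (R 4.3.3), with replicates as blocks, and p-values were adjusted by Benjamini-Hochberg over all clusters tested. A call needed an adjusted p under 0.05 and a change of 10% or more (0.14 as log2). The labels' replicate numbers mark shared biological replicates, and same-numbered KD and control arrays deviated together (r of 0.19 to 0.57 over 6 pairs of arms). The replicates are cultures of 1 cell line. With replicates as blocks, p-values measure the spread of arrays around their arm and replicate means. The arrays of different siRNA sequences within a replicate were counted as separate, except where sequences were averaged within replicates. The methods' t-test is a two-sample test on the deposited values, with the mean of each replicate taken off first. The covariates that the authors adjusted for are not named, so only the replicate was used.

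The members and gene lists were chosen with earlier results of these data known. Named were the 4 members, list genes called in either KD, the siRNA targets and, for each member, the 3 genes with the highest correlation. Other genes named in the lists, among the markers and beside the members were picked after their values were seen. A list gene with several clusters counted once, as called if any of them was. Promoters are from RefSeq (GRCh38.p14), and 4 of 4 members matched by symbol. Alternatives were no replicate block, leaving out each replicate or a doubtful array, each siRNA sequence alone, sequences averaged within replicates, the scan batch as a block, a further quantile normalization, array weights, the methods' t-test, no filter on low values and no minimum difference.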

Additional observations from a re-analysis of the deposited data

Results flagged for a closer look

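Among 16 arms of 6 arrays (4 genes in 4 groups), 2 held an array that stood apart from the other 5 by Dixon's ratio, which chance gives in about 1 of 20 arms. The control array of experiment 2 with sequence 1, replicate 3 had the highest *WIPI1* level, 10.88, with the other 5 controls at 10.75 to 10.79. The control array of experiment 1 with sequence 2, replicate 1 had the highest *CYP19A1* level, 11.00, with a median of 10.75 over its arm. Without replicate 3, the *WIPI1* effect of p52/RelB KD was −0.66, and without replicate 1, the *CYP19A1* effect of p50/RelA KD was 0.10.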

How the results depend on the processing

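Over 11 alternatives each, the effects and their differences kept their sign for all 4 genes. Leaving out the block, averaging the sequences and blocking by scan batch could not move the effects, since the arms are balanced within replicates. Effects of p52/RelB KD lay between −0.75 and −0.66 for *WIPI1*, −0.76 and −0.67 for *AHNAK*, −0.56 and −0.51 for *CYP19A1* and −0.80 and −0.74 for *KCNN1*. The *AHNAK* effect moved by more than its replicate SD of 0.03 with sequence 1 alone (−0.67) and sequence 2 alone (−0.76). The ranges after p50/RelA KD were −0.09 to −0.05 for *WIPI1*, −0.11 to −0.02 for *AHNAK*, 0.05 to 0.11 for *CYP19A1* and −0.31 to −0.20 for *KCNN1*. The *AHNAK* value was −0.02 without replicate 2 and −0.11 without replicate 3, and the *CYP19A1* value was 0.05 without replicate 3. Without the replicate block only the SE and p-values could change, and the SE of the *KCNN1* effect of p52/RelB KD rose from 0.03 to 0.05. *KCNMA1* lost its call after p50/RelA KD without the block, so that the potassium channel count was 0.

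The list counts depended on the arrays used, and the cause was not tested. Leaving out a replicate or a doubtful array gave 0 to 7 calls after p52/RelB KD for autophagy, 1 to 4 for AHNAK partners, 1 to 3 for steroid genes and 1 to 3 for potassium channels, and after p50/RelA KD 0 to 3, 0 to 1 and 0 to 0 for the last 3 lists. With sequence 2 alone, no list gene was called, 0 in each of the 4 lists after either KD. That fit kept 1 array per replicate and arm, among them the outlying p52/RelB KD array. The share of all clusters called in it was not counted. The list genes called after p52/RelB KD kept the sign of their effects under every alternative, with −0.47 to −0.42 for *KCNMA1* and −0.54 to −0.42 for *HSD17B12*. With sequence 1 alone, autophagy had 2 after p52/RelB KD, and steroid genes and potassium channels 0 after p50/RelA KD. With sequences averaged within replicates, autophagy had 0 and steroid genes 1 after p52/RelB KD, and steroid genes and potassium channels 0 after p50/RelA KD. After p50/RelA KD, AHNAK partners had 2 with further quantile normalization, 3 with array weights and 2 by the methods' t-test, and potassium channels had 0 with further quantile normalization and 0 with no filter on low values. The sequence differences of the members were called under none of the alternatives run. The number of arrays, 6 per arm, limits what small differences can be seen.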
